A study of Citrus reticulata and Citrus x clementina and Citrus x paradisi with 16 samples.

Results

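The loci described here are the transcribed places of the grapefruit and pummelo ovule assembly for which the deposited table gives no reference gene of sweet orange. Members were loci with a dash in place of the reference gene that reached at least 1 CPM (counts scaled to the library total) in 2 of the 8 libraries, each locus being given the count of its most counted transcript. The rule left 3568 members of 5403 loci without a reference gene, out of 22595 loci in the table. They are set beside 16375 loci with a reference gene that passed the same filter, which makes 19943 loci tested. Ovules were taken from 'Cocktail' grapefruit (GF, Citrus paradisi), which is polyembryonic, and from 'Huanong red' pummelo (PU, Citrus grandis), which is monoembryonic, at 0 days after flowering (DAF), named pre-NEI, and at 3 DAF, named NEI for nucellar embryo initiation. The 4 groups, GF at pre-NEI, GF at NEI, PU at pre-NEI and PU at NEI, held 2 libraries each. The stage names were set by the first initiation cells in GF and mark only the matching days in PU. All flowers were hand pollinated with trifoliate orange, each library pooled ovules of several trees, and the replicates came from different years, without a statement of which replicate number belongs to which year. Each cultivar is 1 genotype, so polyembryony and the other differences of GF and PU cannot be told apart, and the p-values cover only the spread between these libraries.

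Citrus ovules of polyembryonic cultivars form, besides the sexual embryo, extra embryos from cells of the nucellus, the maternal tissue around the embryo sac, and these seedlings are copies of the mother. A transcript assembly built from reads records every place with enough aligned reads, whether or not a gene had been predicted there. Loci without a gene model are known to include missed protein-coding genes, long non-coding and antisense RNAs, transcribed transposons, ends of known genes that reach past their model and unspliced remains of introns. In libraries that do not mark the strand, an assembler reads the strand of a transcript from its splice sites, so that a transcript without an intron is usually left without one. The table carries no gene descriptions, so ovule markers could not be checked and no function is given to any locus.

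Library totals over all loci ran from 12.97 to 34.2 megacounts in GF and from 11.8 to 19.2 megacounts in PU. Where no read was counted, up to 3 counts remain possible, equal to 0.0877 to 0.253 CPM in a library. This floor and the counting intervals given with single ratios cover counting error only. The median member had a mean of 1.80 CPM over the 8 libraries, so that many members rest on few counts.

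Members were shorter and poorer in GC than loci with a reference gene. Their median length was 647 bp (quartiles 404 and 1064.5 bp), against 1805 bp (1206 and 2595 bp) for loci with a reference gene, and members ranged over 37 to 13133 bp. Transcripts under 500 bases made up 35% of members and 2.31% of loci with a reference gene, while transcripts over 2000 bases made up 7.71% and 42.3%. Median GC content was 37.1% in members and 41.4% in loci with a reference gene. A GC content under 35% was found in 1072 members (30.04%) and in 1.39% of loci with a reference gene. The shortest member, of 37 bases, was the only one listed with a GC content of 0%. The gap in GC was present at every length, and the members had the lower median in each of the 5 length classes, with 37.0% against 41.8% up to 300 bp and 37.6% against 41.1% over 2000 bp. At the other end, GC content over 50% was found in 86 members (2.41%) and in 1.04% of loci with a reference gene.

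**Figure D1:**
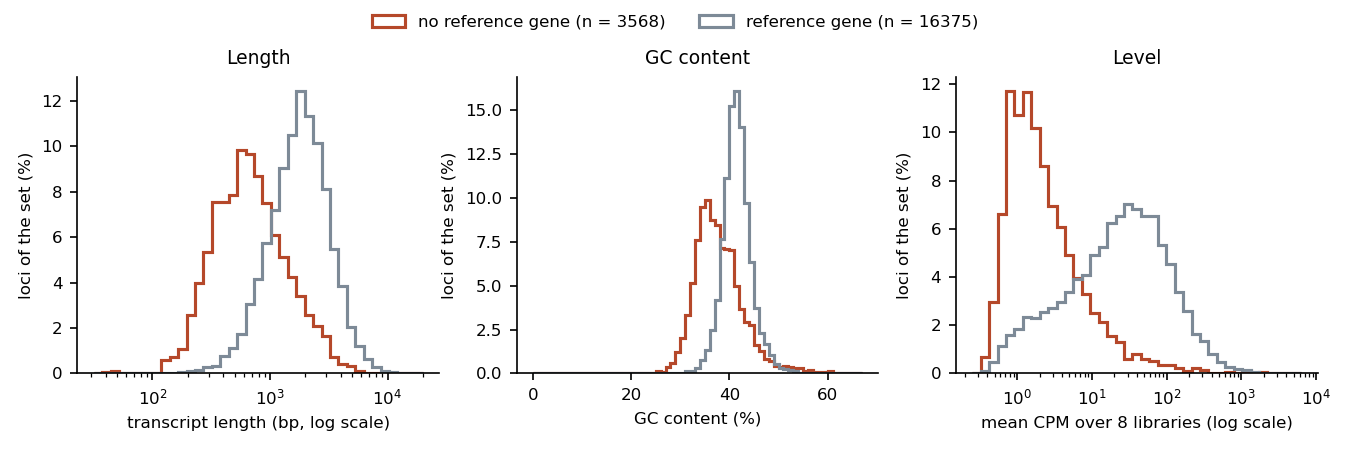
Transcript length (bp, log scale), GC content (%) and mean level over the 8 libraries (CPM, log scale) as percent of each set, for 3568 loci without a reference gene and 16375 loci with one. Median values were 647 against 1805 bp, 37.1 against 41.4% and 1.80 against 24.5 CPM, and the curve of the loci without a reference gene lies to the left in all 3 panels.

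For most members the table gives no strand. This was so for 2496 members (70.0%), while 518 were on the plus and 554 on the minus strand, and every locus with a reference gene had a strand. The span on the genome equalled the transcript length in 1766 members (49.5%), against 1.12% of loci with a reference gene. A single transcript was listed for 82.2% of members and 23.9% of loci with a reference gene. Members with a strand were longer than those without one (median 873.5 against 592.5 bp) and had the higher level (median 3.09 against 1.48 CPM), and 53.6% of them had a single transcript against 94.5% of those without a strand. The 1835 loci without a reference gene that fell under the filter went further the same way, with a median length of 430 bp and no strand for 89.97%.

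The majority of members lay within or across an annotated locus. The span of 1905 members (53.4%) overlapped that of a locus with a reference gene by at least 1 base, and 1721 (48.2%) lay whole inside such spans, whereas 20.7% of loci with a reference gene overlapped another locus of their own kind. The largest class, 1332 members (37.3%), overlapped without a strand of its own. It had the shortest transcripts (median 507 bp) and the lowest median GC content (35.3%) of all place classes. A further 494 members (13.8%) lay on the opposite strand of the locus they overlapped, with a median length of 975 bp and the highest median level of the classes (3.68 CPM), and 79 (2.21%) lay on the same strand. Only spans were known and not exons, so an overlap may lie in an intron.

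Outside annotated spans, 401 members (11.2%) lay under 1 kb from the nearest locus with a reference gene, 560 (15.7%) at 1 to 5 kb and 702 (19.7%) at over 5 kb. Under 1 kb, 259 members were on the 3′ side of their neighbour and 142 on its 5′ side. At greater distance the numbers were 265 and 295 at 1 to 5 kb and 314 and 388 at over 5 kb. Among loci with a reference gene the nearest other one was likewise more often met from its 3′ side under 1 kb (2681 against 1841 loci). The 3 classes without overlap had median GC contents of 38.6 to 38.9%. Members were also frequent on sequence not placed on a chromosome, which held 845 of them (23.7%) and 14.2% of loci with a reference gene. For each 100 loci with a reference gene there were 36.3 members on unplaced sequence, and 14.2 (chromosome 6) to 25.1 (chromosome 8) on the 9 chromosomes.

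**Figure D2:**
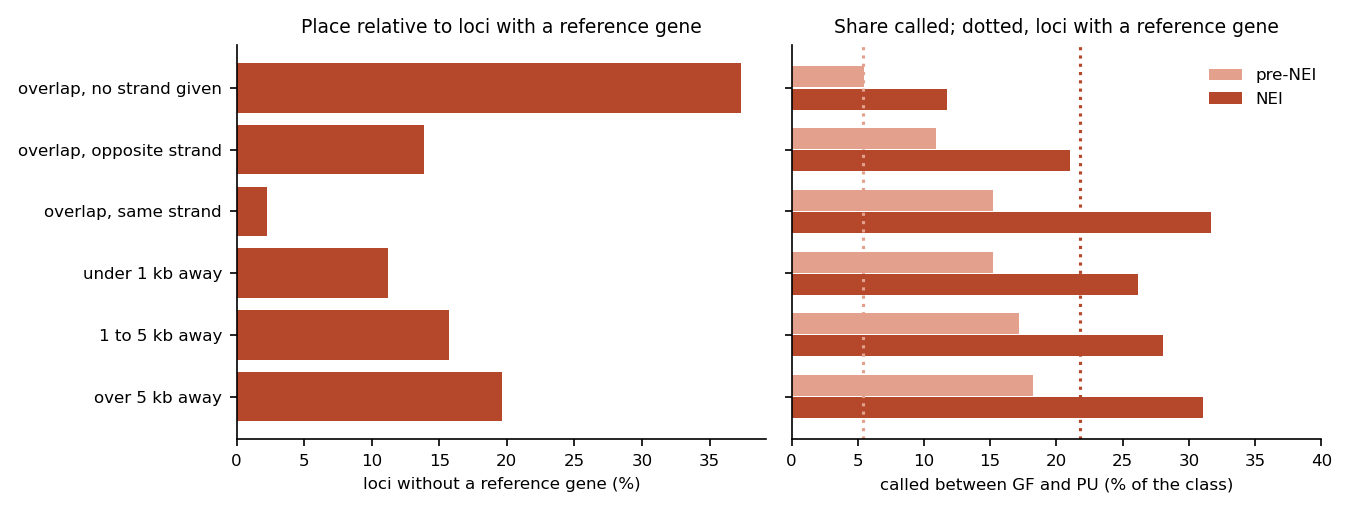
Left, percent of the 3568 loci without a reference gene in each place class relative to loci with a reference gene; right, percent of each class called in GF against PU, at pre-NEI (light) and at NEI (dark), with dotted lines at the share of loci with a reference gene called at each stage. The overlapping loci without a strand are the largest class (37.3%) and have the lowest share called at both stages (5.48% and 11.7%).

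Some loci on opposite strands of the same place had nearly the same counts in every library, so loci that overlap may hold the same reads. Of the members, 2307 (64.7%) overlapped another tested locus. Counts were taken as nearly the same where the smaller values of a pair, summed over the 8 libraries, reached at least 90% of the summed larger values. An overlapping locus of this kind was found for 220 members (6.17%). For 198 of these the partner was another member and for 22 a locus with a reference gene. The members fell into 3109 groups of mutual overlap, the largest of 11, and 737 members were in groups of 2 or more. Such members are not separate evidence.

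Members were expressed at low levels, with a small number of exceptions. The median of the mean over the 8 libraries was 1.80 CPM in members and 24.5 CPM in loci with a reference gene, and per kb of transcript it was 3.00 and 12.7 CPM. A mean of at least 10 CPM was reached by 400 members (11.2%) and by 69.8% of loci with a reference gene, and at least 100 CPM by 45 members. Together the members held 2.74 to 4.42% of the counts of a library. Of the 2 members just inside the filter, XLOC_001941 and XLOC_001952, both reached 1.00 CPM in their second highest library, and the nearest loci outside it, XLOC_004595 and XLOC_005790, reached 0.994 CPM. In the pooled FPKM values of the authors, 71 members (1.99%) and no locus with a reference gene were listed at 0 in all 4 groups, among them a member of 1175 CPM, while 11 members with a median length of 50 bases had an FPKM over 10000 at a median of only 2.06 CPM. FPKM was therefore not used for levels.

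The highest counts belonged to a locus pair on chromosome 6, XLOC_012288 (4448874 to 4450958, minus strand, 2085 bp) and XLOC_011536 (4448941 to 4450931, plus strand), which lie across each other 38.8 kb from the nearest locus with a reference gene and had nearly the same counts. XLOC_012288 had 1710.2 and 1144 CPM in GF at pre-NEI, 3319 and 2226 CPM in GF at NEI, 1119.6 and 1249 CPM in PU at pre-NEI, and 2265 and 915 CPM in PU at NEI. No comparison called it (GF over PU at NEI, log2 fold change 1.05 ± 0.57, SE, edgeR quasi-likelihood test, adjusted p 0.209). A pair on unplaced sequence, XLOC_022545 and XLOC_021638 (85268610 to 85269445), had a mean of 1175 CPM. XLOC_022545 had 1384 and 1035 CPM in GF at pre-NEI, 719 and 598 CPM in GF at NEI, 872 and 1084 CPM in PU at pre-NEI, and 2259 and 1447 CPM in PU at NEI. The NEI libraries of the 2 cultivars did not overlap, and the difference missed the threshold (-1.24 ± 0.41, adjusted p 0.0665). XLOC_009520 on chromosome 5 (29760799 to 29762136, plus strand), opposite Cs5g27060, had 913 and 665 CPM in GF at pre-NEI, 1283 and 406 CPM in GF at NEI, 894 and 976 CPM in PU at pre-NEI, and 334 and 338 CPM in PU at NEI, with no call (GF over PU at NEI 1.65 ± 0.57, adjusted p 0.073).

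Another 4 of the 10 most abundant members had GC contents of 52.8 to 60.5% and differed more between replicates than between groups. XLOC_015743 (chromosome 7, 23021415 to 23022425, GC 52.8%) had 1201 and 326 CPM in GF at pre-NEI, 1411 and 413 CPM in GF at NEI, 2703 and 708 CPM in PU at pre-NEI, and 1773 and 369 CPM in PU at NEI. Its neighbour XLOC_015742 (23019913 to 23021042, GC 59.6%), which like it overlaps Cs7g24050, had 1096 and 269, 991 and 324, 2085 and 731, and 1437 and 272 CPM in the same order. On unplaced sequence XLOC_021771 (8395104 to 8396496, GC 60.3%) and XLOC_021204 (51001160 to 51117182, GC 60.5%) had means of 736 and 358 CPM. In each of these 4 members replicate 1 exceeded replicate 2 in all 4 groups, by 2.11- to 5.45-fold. The pair on chromosome 6, XLOC_011536 and XLOC_012288, also had GC contents over 50% (51.1 and 50.2%) but did not follow this pattern. For XLOC_012288 the ratio of replicate 1 to replicate 2 was 1.49, 1.49, 0.896 and 2.47 in the same order of groups. Of the 86 members with a GC content over 50%, 10 (11.6%) had at least 2-fold more in replicate 1 in all 4 groups and none had at least 2-fold more in replicate 2 throughout. Among the 3482 other members the numbers were 11 (0.316%) and 47 (1.35%), and among the 171 loci with a reference gene and a GC content over 50% they were 4 (2.34%) and none. The members of GC content over 50% took 0.814 and 0.378% of counts in GF at pre-NEI, 1.10 and 0.604% in GF at NEI, 1.04 and 0.540% in PU at pre-NEI, and 1.10 and 0.378% in PU at NEI, replicate 1 being higher in each group. Most of these counts lay in the 4 members named above and the chromosome 6 pair. Over all 86 members the median log2 ratio of replicate 1 to replicate 2 was 0.10 to 0.27 by group. Among the 171 loci with a reference gene of such GC content it was 0.11 to 0.62. Replicates came from different years, but the replicate numbers are not tied to a year, and the part of the year in this pattern was not tested.

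**Figure D3:**
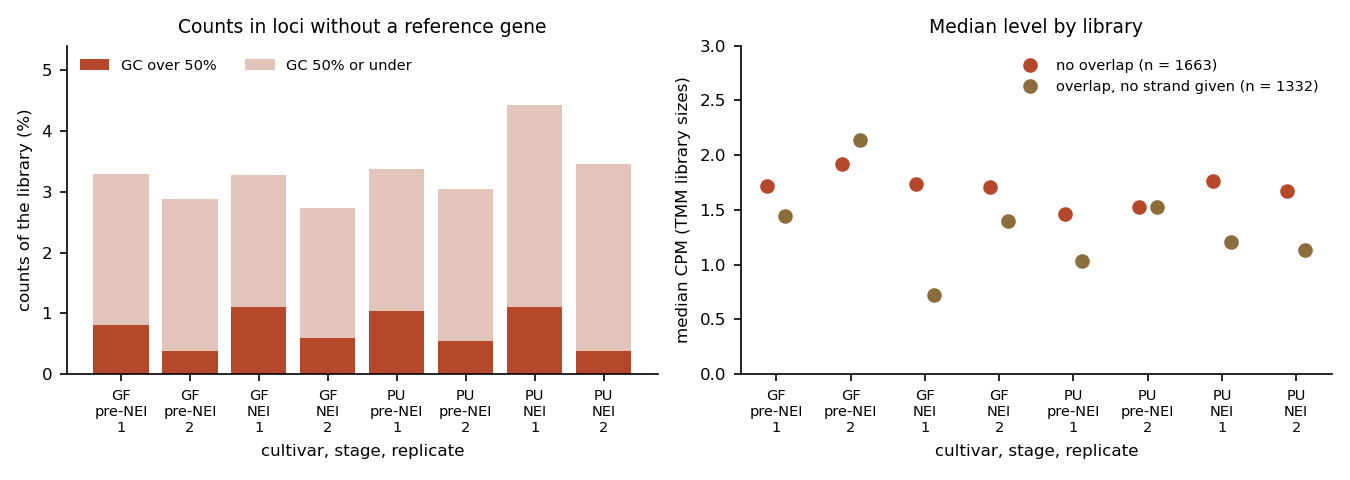
Left, percent of the counts of each of the 8 libraries that fell in loci without a reference gene, split at a GC content of 50%; right, median level (CPM with TMM library sizes) by library of the 1663 members without overlap and of the 1332 overlapping members without a strand. Replicate 1 has the larger GC-rich share in every group (0.814 to 1.10%, against 0.378 to 0.604% in replicate 2), and the overlapping loci are lowest in GF NEI replicate 1 (0.720 CPM).

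The 3 longest members lay above the median member in level per kb, with 3.81, 24.6 and 39.7 CPM per kb. XLOC_013612 (chromosome 7, 7169225 to 7182357, 13133 bp, 1 transcript, opposite Cs7g10960) had 53.3 and 106 CPM in GF at pre-NEI, 15.9 and 23.1 CPM in GF at NEI, 38.4 and 90.3 CPM in PU at pre-NEI, and 28.5 and 44.6 CPM in PU at NEI. Both pre-NEI libraries of GF exceeded both NEI libraries, but NEI over pre-NEI was not called (-2.02 ± 0.49, adjusted p 0.14). XLOC_006414 (chromosome 3, 10012 bp) and XLOC_010115 (chromosome 5, 7881 bp) had means of 246 and 313 CPM, each with a near-identical partner on the same place, and were not called in any comparison.

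GF was set against PU at pre-NEI to ask which loci differed between the cultivars before initiation cells were seen. Of the 3568 members, 424 (11.9%) were called by the edgeR quasi-likelihood test, which here means an adjusted p under 0.05 together with a log2 fold change of 1 or more in size, against 6.57% of all loci tested and 886 (5.41%) of loci with a reference gene. Of these members 274 were higher and 150 lower in GF (over all loci tested, 4.24% were higher and 2.33% lower). In whole ovules, fewer cells that express a locus and less RNA per cell cannot be told apart. DESeq2 called 721 members (20.2%, against 13.1% of all loci), the edgeR exact test 645 (18.1%, against 9.92%) and the quasi-likelihood test with replicate number as a block 595 (16.7%, against 10.6%). The median log2 fold change was 0.23 over members and -0.03 over loci with a reference gene. With a library left out, the median over members ran from 0.02 (without GF pre-NEI replicate 2) to 0.48 (without PU pre-NEI replicate 2). The count was lower without any of several libraries, a step that leaves fewer libraries to the test as well. It was 75 without GF pre-NEI replicate 1, 18 without GF pre-NEI replicate 2, 63 without PU pre-NEI replicate 1, 80 without PU pre-NEI replicate 2 and 239 without either NEI library of GF. The direction of the balance also rested on the PU pre-NEI libraries, since 21 members were higher and 42 lower in GF without PU pre-NEI replicate 1, and 37 were higher and 43 lower without PU pre-NEI replicate 2. With only the 4 pre-NEI libraries fitted, 118 members were called, 62 higher and 56 lower in GF. For this fit and those without a library, calls over all loci were not counted. Whether the members kept their larger share, or a balance unlike that of other loci, is therefore not shown.

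At NEI the share of members called was near that of all loci tested. Among loci that reached 1 CPM in libraries of both cultivars, however, 9.91% of members and 19.7% of loci with a reference gene were called. There were 765 called members (21.4%), 398 higher and 367 lower in GF, against 21.7% of all loci tested (12% higher and 9.79% lower) and 3571 (21.8%) of loci with a reference gene. DESeq2 called 991 members (27.8%, against 29.6% of all loci), the edgeR exact test 977 (27.4%, against 28.3%) and the quasi-likelihood test with the block 1013 (28.4%, against 29.7%). The median log2 fold change was -0.09 over members and 0.08 over loci with a reference gene. With a library left out, the median over members ran from -0.39 (without GF NEI replicate 2) to 0.01 (without PU NEI replicate 1). In the fits that follow, each without a library, calls over all loci were not counted. Without GF NEI replicate 1 the count was 190, without GF NEI replicate 2 it was 286, and without PU NEI replicate 1 and PU NEI replicate 2 it was 364 and 100. Among those 100, 43 were higher and 57 lower in GF. At both stages 217 members were higher and 134 lower in GF and 1 member changed direction. These were 83.0% of the members called at pre-NEI and 46.0% of those called at NEI, while for loci with a reference gene the shares were 77.8% and 19.3%. Both comparisons used different libraries but shared 1 fit.

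The share of members called differed between place classes, where over all loci tested it was 6.57% at pre-NEI and 21.7% at NEI. Among the 1663 members that overlap no locus with a reference gene 17.1% were called at pre-NEI and 28.9% at NEI, and among the 1905 overlapping members 7.30% and 15.0%. The share was highest over 5 kb from the nearest locus with a reference gene at pre-NEI (18.2%, and 31.1% at NEI), and lowest in overlapping members without a strand (5.48% and 11.7%). Members with a strand were called more often than those without one (15.5 against 10.3% at pre-NEI, 27.5 against 18.8% at NEI). On chromosome 6, 31 of 194 members were higher and 7 lower in GF at pre-NEI (19.6% called), the highest share of any chromosome. At NEI its share was 20.6%, and chromosome 3 had the highest share (26.5%). Calls of loci with a reference gene were not counted by place class or by single chromosome, so whether these differences are particular to members is not shown. Calls by place were also not split by level or by the cultivar through which a member passed the filter. These shares are descriptions without a test, since neighbouring and overlapping loci are not independent.

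The larger share of members called at pre-NEI was present in each class of level. Of members with a mean of at least 10 CPM 12.2% were called at pre-NEI, against 4.08% of loci with a reference gene. From 2 to 10 CPM the shares were 11.5 and 8.11%, and under 2 CPM 12.1 and 9.31%. At NEI the classes gave 22.8 against 20.9%, 20.3 against 24.9% and 21.9 against 21.4%. A locus could also pass the filter through 1 cultivar only, without reaching 1 CPM in any library of the other, and calls among such loci are not independent of the filter. This held for 552 members in GF only (15.5%) and 483 in PU only (13.5%), against 3.04 and 3.38% of loci with a reference gene. Among the 2533 members that reached 1 CPM in libraries of both cultivars 4.03% were called at pre-NEI and 9.91% at NEI, against 3.68 and 19.7% of the 15325 such loci with a reference gene.

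**Figure D4:**
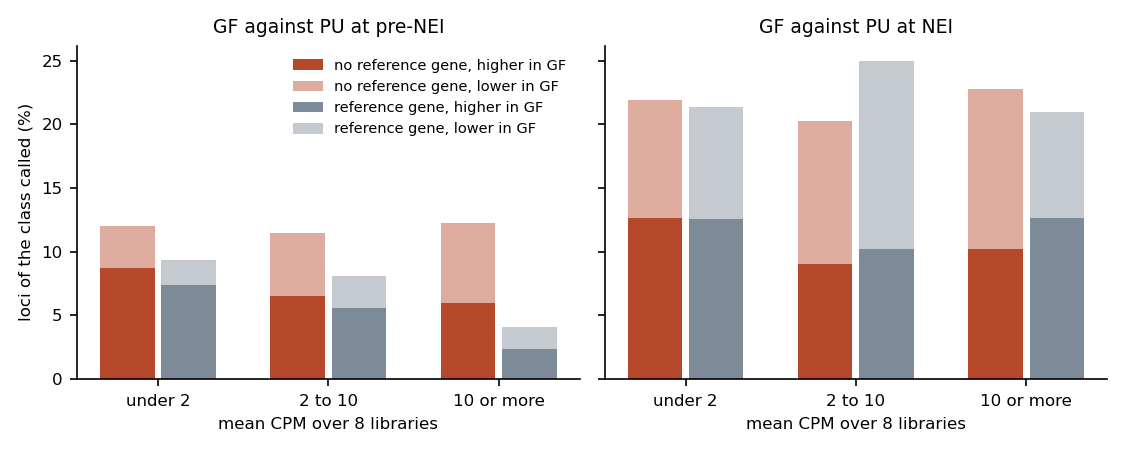
Percent of loci called in GF against PU, at pre-NEI (left panel) and at NEI (right panel), by mean level over the 8 libraries, for loci without a reference gene (left bar) and with one (right bar); the dark part is higher and the light part lower in GF. At pre-NEI the loci without a reference gene have the larger share in all 3 classes (12.2 against 4.08% at 10 CPM or more), and at NEI the shares lie at 20.3 to 24.9%.

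A stricter view of the same filter counted members with under 3 counts in each of the 4 libraries of 1 cultivar and at least 1 CPM in each of the 4 libraries of the other. There were 67 such members in GF only (1.88%) and 38 in PU only (1.07%), against 87 (0.531%) and 23 (0.140%) loci with a reference gene. Of the 67, 18 were on unplaced sequence, 39 had no strand and 20 overlapped a locus with a reference gene. The share of members with 0 counts was 3.92 and 2.61% in GF at pre-NEI and 4.23 and 3.73% in GF at NEI, against 5.77 and 6.56% in PU at pre-NEI and 5.18 and 5.91% in PU at NEI. These shares were not tested, since the filter used the same libraries. The members took 3.04 ± 0.28% of counts in GF and 3.57 ± 0.59% in PU (SD, n = 4 libraries). A two-sided exact permutation test within stages gave p = 0.167, where the smallest p that 36 permutations allow is 0.0556. The filter used the same libraries here too, and overlapping members may hold the same reads, so no conclusion is drawn from this test. Reads of both cultivars were aligned to the sweet orange genome, so that a lower level and a poorer alignment of the reads of 1 cultivar cannot be told apart.

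By the rule for named loci, 21 members were taken from the cultivar comparisons, 11 higher and 10 lower in GF, and 17 of them were called at both stages. In 6 of them no PU library and in 6 others no GF library had a count, so that a fold change is given as a bound against the floor of 3 counts per library. Other values with a ± are log2 fold changes with their SE, with adjusted p-values of the edgeR quasi-likelihood test over 2 libraries per group. All 21 members reached 1 CPM only in libraries of the cultivar where they were higher, and they were picked for their fold change. Their p-values, and the alternatives under which a call was kept, are therefore not independent of the filter and of this choice.

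Among the members higher in GF, XLOC_020619 (unplaced sequence, 20785666 to 20790536, minus strand, 854 bp, 3 transcripts) had the highest level and lay 50.7 kb from the nearest locus with a reference gene. It had 37.9 and 37.9 CPM in GF at pre-NEI and 71.4 and 149 CPM in GF at NEI, against 0.756 and 0.253 CPM in PU at pre-NEI and 0.0521 and 0.160 CPM in PU at NEI. All 4 GF libraries exceeded all PU libraries. It was called at pre-NEI (6.23 ± 0.58, adjusted p 0.00514), and at NEI, where PU had 3 counts in all, the ratio of CPM was 1082 (95% counting interval 370.0 to 5251, adjusted p 0.00199). Both calls were kept under all 16 alternatives run. NEI over pre-NEI was 1.54 ± 0.44 in GF, which was not called (adjusted p 0.182).

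On chromosome 3, XLOC_005683 (767555 to 769027, minus strand, 1238 bp) and XLOC_006600 (767552 to 768960, no strand) covered the same place. XLOC_005683 had 3.96 and 9.71 CPM in GF at pre-NEI and 19.4 and 21.5 CPM in GF at NEI, against 0.162 and 0.422 CPM in PU at pre-NEI and 0 counts in both PU libraries at NEI. At NEI it was at least 103-fold higher in GF (adjusted p 0.00528). The call at pre-NEI (4.73 ± 0.73, adjusted p 0.0206) was lost with only the 4 libraries compared and without GF replicate 2, PU replicate 1 or PU replicate 2 of that stage, with adjusted p-values up to 0.103 among the alternatives. XLOC_006591 on the same chromosome (424345 to 424702, no strand, 355 bp) had 11.4 and 10.7 CPM in GF at pre-NEI and 9.52 and 11.6 CPM in GF at NEI, against 0 counts at pre-NEI and a single count at NEI in PU. It was at least 53.1-fold higher in GF at pre-NEI (adjusted p 0.00608), and the libraries of GF lay within a narrow range. XLOC_006012 (18250318 to 18257145, minus strand, 6 transcripts), 105 bases past the 3′ end of Cs3g13910, had 14.8 and 9.94 CPM in GF at pre-NEI and 4.86 and 17.0 CPM in GF at NEI, against no count in PU. It was at least 59.6-fold higher at pre-NEI and at least 55.0-fold higher at NEI (adjusted p 0.016 and 0.0091), and the call at pre-NEI was lost without any 1 of the 4 pre-NEI libraries (adjusted p up to 0.0748 among the alternatives) and that at NEI without PU NEI replicate 2 (0.0501).

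On chromosome 5, XLOC_011387 (32435262 to 32435950, 498 bases before the 5′ end of Cs5g30590) had 7.07 and 5.59 CPM in GF at pre-NEI and 7.87 and 10.2 CPM in GF at NEI, against no count in PU, and was at least 30.5-fold and 45.5-fold higher in GF (adjusted p 0.00958 and 0.00563). Its call at pre-NEI was lost without GF pre-NEI replicate 2 (adjusted p 0.059). Also without a count in PU were XLOC_018884, which lies on unplaced sequence opposite a locus with a reference gene, with 2.02 to 11.6 CPM in the GF libraries, and 3 members in which the stages of GF did not overlap. XLOC_017661 (chromosome 9, 3364439 to 3364982, plus strand) had 0.535 and 0.556 CPM in GF at pre-NEI and 11.0 and 12.7 CPM in GF at NEI. XLOC_011414 (chromosome 5, 33497588 to 33498313) had 5.03 and 26.3 CPM in GF at pre-NEI and 0.259 and 1.47 CPM in GF at NEI. XLOC_008468 (chromosome 4, 1560633 to 1561623) had 3.32 and 12.7 CPM in GF at pre-NEI and 0.104 and 0.0771 CPM in GF at NEI.

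The first of these 3 was higher at NEI and the others at pre-NEI, and NEI over pre-NEI was called in none of them (4.45 ± 0.55, -4.26 ± 1.18 and -6.32 ± 1.09, adjusted p 0.0956, 0.201 and 0.121). Against PU, XLOC_017661 was at least 59.8-fold higher at NEI (adjusted p 0.00555). XLOC_011414 and XLOC_008468 were at least 75.4-fold and 38.5-fold higher at pre-NEI (adjusted p 0.038 and 0.0252), calls that were lost under 8 of 16 and 6 of 15 alternatives (adjusted p up to 0.13 and 0.102). XLOC_019823 (unplaced sequence, 53346684 to 53348992) had 3.11 to 8.28 CPM in GF, against no count in PU at pre-NEI and 1 count in each PU library at NEI. Its level was at least 31.8-fold higher in GF at pre-NEI (adjusted p 0.00814), a call lost without GF pre-NEI replicate 2 (0.0519), and its call at NEI was lost without PU NEI replicate 2 (0.0572). XLOC_018884 was at least 41.9-fold and 23.9-fold higher in GF at pre-NEI and NEI (adjusted p 0.0233 and 0.0142), calls that were lost without any 1 of the 4 pre-NEI libraries (up to 0.104) and without PU NEI replicate 2 (0.0663).

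**Figure D5:**
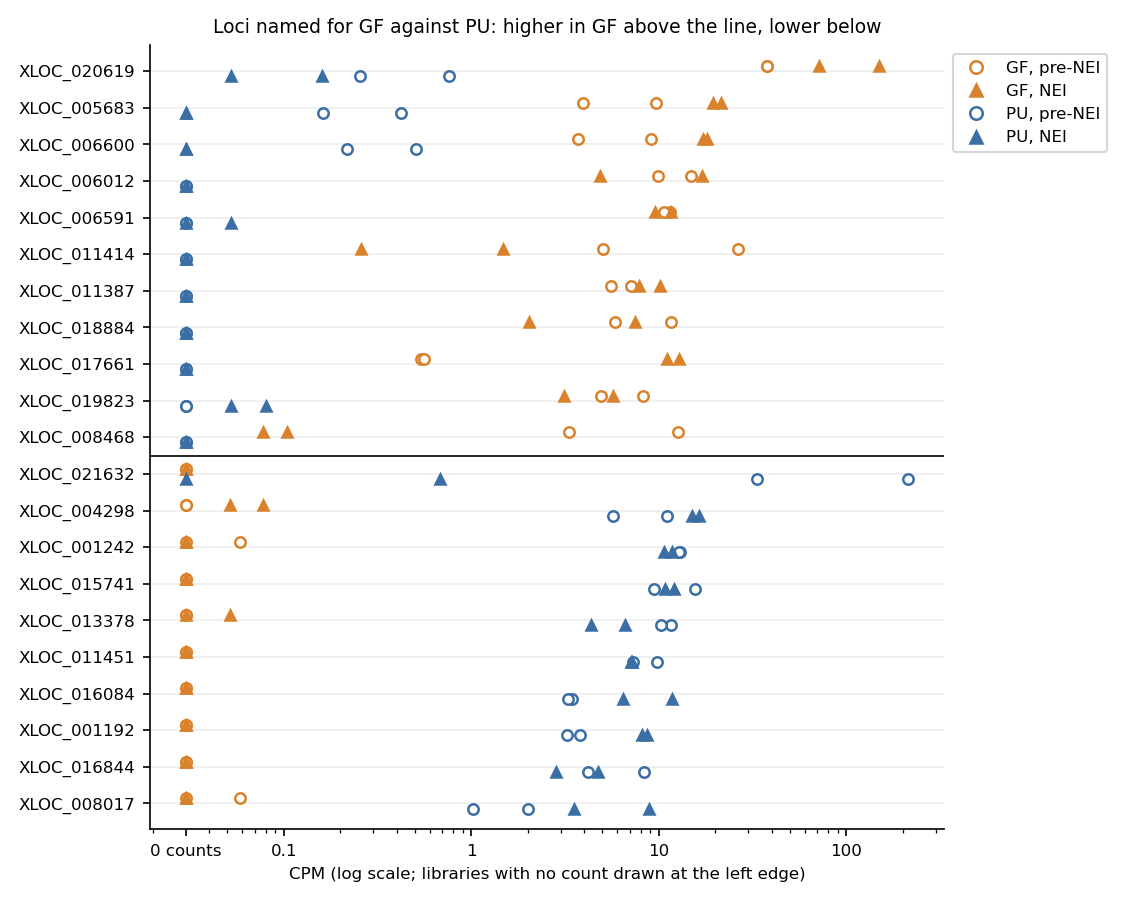
CPM (log scale) in each of the 8 libraries for the 21 members named in the comparisons of GF with PU, with those higher in GF above the line and those lower in GF below it; colours give the cultivar, circles pre-NEI and triangles NEI, and libraries without a count are drawn at the left edge. In the upper block the GF libraries reach 149 CPM and no PU library exceeds 0.756 CPM, and in the lower block no GF library exceeds 0.0771 CPM.

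Of the members lower in GF, 25 of 150 at pre-NEI and 35 of 367 at NEI had no count in any GF library, and 6 of the 10 named here for their large fold change were among them. In the other direction, 55 of 274 members higher in GF at pre-NEI and 72 of 398 at NEI had no count in any PU library. Loci with a reference gene were not counted in this way. XLOC_015741 (chromosome 7, 23007807 to 23008381, no strand, 572 bp), 2009 bases past the 3′ end of Cs7g24040, had no count in GF, against 9.39 and 15.5 CPM in PU at pre-NEI and 12.04 and 10.7 CPM in PU at NEI. It was at least 100.4-fold lower in GF at pre-NEI and at least 58.9-fold lower at NEI (adjusted p 0.00807 and 0.0059), and both calls were kept under all 16 alternatives. XLOC_011451 (chromosome 5, 35782335 to 35782715, 381 bp) had no count in GF, against 7.23 and 9.71 CPM in PU at pre-NEI and 7.19 and 7.13 CPM in PU at NEI, and was at least 68.3-fold and 37.1-fold lower in GF (adjusted p 0.00814 and 0.00658). The call at pre-NEI was lost without GF pre-NEI replicate 2 (adjusted p 0.0519).

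XLOC_004298 (chromosome 2, 325100 to 325806) had no count in GF at pre-NEI and 1 count in each GF library at NEI, against 11.0 and 5.66 CPM in PU at pre-NEI and 16.4 and 15.1 CPM in PU at NEI. It was at least 67.1-fold lower in GF at pre-NEI (adjusted p 0.00617). XLOC_001242 (chromosome 1, 13872059 to 13876189, minus strand, 2008 bp, opposite Cs1g11330) had 2 counts in all in GF, against 13.0 and 12.8 CPM in PU at pre-NEI and 10.6 and 11.8 CPM in PU at NEI, and was at least 58.0-fold lower in GF at NEI (adjusted p 0.00548). The libraries of PU differed little for this member. XLOC_013378 (chromosome 7, 2718517 to 2719330, GC 47.5%) had 1 count in all in GF, against 11.7 and 10.2 CPM in PU at pre-NEI and 6.57 and 4.33 CPM in PU at NEI, and was at least 88.1-fold lower in GF at pre-NEI (adjusted p 0.00757). The calls of XLOC_004298, XLOC_001242 and XLOC_013378 at both stages were kept under all 16 alternatives.

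For 4 further members the PU libraries lay at 1.01 to 11.7 CPM and the GF libraries held 2 counts in all. They were XLOC_001192 (chromosome 1), XLOC_016084 and XLOC_016844 (chromosome 8), all at least 19.5-fold lower in GF at both stages, and XLOC_008017 (chromosome 4, 87 bases past a 3′ end), which was called at NEI (adjusted p 0.012) and not at pre-NEI (-5.06 ± 1.13, adjusted p 0.0522). The call of XLOC_008017 was lost without GF NEI replicate 1 (adjusted p 0.054), that of XLOC_001192 at pre-NEI without GF pre-NEI replicate 2 (0.0684), those of XLOC_016844 without GF pre-NEI replicate 2 (0.0794) or PU NEI replicate 2 (0.0592), and that of XLOC_016084 at pre-NEI without any 1 of the 4 pre-NEI libraries (up to 0.0889).

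A single abundant member of this kind was present at 1 stage. XLOC_021632 (unplaced sequence, 84695773 to 84697039, minus strand, 601 bp, opposite orange1.1t05216 and orange1.1t05233) had no count in GF, against 33.2 and 214 CPM in PU at pre-NEI and 0.678 and 0 CPM in PU at NEI. It was at least 995-fold lower in GF at pre-NEI (adjusted p 0.0288). The call was lost without either GF library or without PU replicate 2 of that stage (adjusted p up to 0.1251), and NEI over pre-NEI in PU was not called (-8.36 ± 1.53, adjusted p 0.0954). Among the 10 most abundant members, XLOC_002327 (chromosome 2, 1763204 to 1765232, plus strand, 62 bases past the 3′ end of Cs2g03790) was the only one called. It had 213 and 24.3 CPM in GF at pre-NEI and 85.2 and 38.0 CPM in GF at NEI, against 826 and 337 CPM in PU at pre-NEI and 944 and 1466 CPM in PU at NEI. It was lower in GF at NEI (-3.96 ± 1.05, adjusted p 0.0351), a call that was lost without any 1 of the 4 NEI libraries (adjusted p up to 0.15), and it was not called at pre-NEI (-2.22 ± 0.97, adjusted p 0.22). The ratio of replicate 1 to replicate 2 of this member ran from 0.644 to 8.77 over the 4 groups.

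The differences between cultivars were set beside those of the nearest or overlapped locus with a reference gene. At pre-NEI the Spearman correlation of log2 fold changes across loci was 0.483 for the 1330 overlapping members without a strand whose neighbour was tested, 0.443 for 490 members on the opposite strand, 0.228 for 77 overlapping members on the same strand, 0.323 under 1 kb, 0.224 at 1 to 5 kb and 0.109 over 5 kb. At NEI the values were 0.445, 0.451, 0.217, 0.325, 0.210 and 0.0684. Loci are not independent replicates, the 2 loci of a pair come from the same libraries, and overlapping loci may share reads. Of 155 overlapping members without a strand that were called at NEI, 66 (42.6%) had a neighbour called in the same direction and 5 (3.23%) in the opposite one, where 22.6% of the neighbours of that class were called. Over 5 kb, 39 of 199 (19.6%) had a neighbour called in the same direction and 27 (13.6%) in the opposite one, where 31.9% were called.

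The comparison of NEI with pre-NEI asked which loci changed as initiation cells appeared in GF, and over the same days in PU. No member was called in GF, in PU or in the interaction of stage and cultivar by the edgeR quasi-likelihood test, and 0% of all 19943 loci tested was called in each. At an unadjusted p under 0.05 there were 491 members in GF, 415 in PU and 215 in the interaction. These were 13.8, 11.6 and 6.03% of members, against 16.8, 21.0 and 11.7% of all loci tested. DESeq2 called 155 members in GF (72 higher and 83 lower at NEI), which were 4.34% of members, against 6.18% of all loci. It called 127 in PU (65 higher and 62 lower, 3.56% against 8.58%) and 34 in the interaction (0.953% against 2.29%). The edgeR exact test called 203 in GF (5.69% against 6.48%) and 100 in PU (2.80% against 4.27%). Without PU pre-NEI replicate 1 the quasi-likelihood test called 3 members in PU. With replicate number as a block the same test called 47 members in GF (23 higher and 24 lower at NEI, 1.32% against 2.31% of all loci), 33 in PU (14 higher and 19 lower, 0.925% against 2.54%) and none in the interaction.

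In GF the median change of the members at NEI was below 0, and that of loci with a reference gene was not. The median log2 fold change of NEI over pre-NEI was -0.37 over members (66.3% of them below 0) and 0.04 over loci with a reference gene (47.5% below 0). It was -0.70 for overlapping members without a strand and -0.16 for members without overlap. In PU the medians were -0.03 over members and 0.02 over loci with a reference gene. They were -0.19 for overlapping members without a strand and 0.02 for members without overlap. Without PU pre-NEI replicate 2 the PU median of the overlapping members without a strand was 0.13. The median level of the overlapping members without a strand was 0.720 and 1.40 CPM in GF at NEI, against 1.44 and 2.14 CPM in GF at pre-NEI, and 1.21 and 1.14 CPM in PU at NEI, against 1.03 and 1.52 CPM in PU at pre-NEI (CPM with TMM library sizes). The 2 libraries farthest apart, GF NEI replicate 1 and GF pre-NEI replicate 2, also gave the smallest differences when left out, and the median over members was -0.21 without GF NEI replicate 1, -0.16 without GF pre-NEI replicate 2 and -0.61 without GF NEI replicate 2. The smallest and the largest share of members at 1 CPM or more were found in the same libraries (53.1 and 74.5%). GF pre-NEI replicate 2 was also the deepest library, and the part of depth in this difference was not tested.

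Libraries were also less alike in members than in loci with a reference gene. Across loci, Pearson correlations of log2 values were 0.849 to 0.919 between replicates over members, against 0.921 to 0.947 over loci with a reference gene. Between a GF and a PU library they were 0.374 to 0.604 over members, against 0.674 to 0.885 over loci with a reference gene, and between the stages of 1 cultivar 0.707 to 0.886 against 0.831 to 0.938. The 2 sets did not overlap for replicates or for pairs of cultivars. Members have the lower counts, and the part of counting error in these correlations was not tested.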

How the data were processed

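Ovules of GF and PU were profiled by mRNA sequencing (8 libraries, 4 groups). The authors aligned reads to the sweet orange genome with TopHat and Bowtie (up to 2 mismatches) and assembled transcripts with Cufflinks. The genome release, the read counter and the strand setting were not given in the sources used here. The authors deposited a whole-number value per transcript and library, read here as a count although the header gives no unit, FPKM per group with replicates pooled, and GC content in percent. No genome was used here, so sequences are not printed.

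Each locus took the count of its transcript with the largest total (94049 transcripts in all). Loci with at least 1 CPM in 2 libraries were fitted together as 4 groups by the quasi-likelihood test of edgeR 4.0.16 (R 4.3.3) with TMM normalisation, leaving 4 residual degrees of freedom, with Benjamini-Hochberg adjustment over 19943 loci. A fold change is GF over PU or NEI over pre-NEI, and its SE is its size over the root of the F statistic. The test was also run on simulated counts, with a common spread for all loci, no shift between replicates and changes only above a minimum level. That run therefore does not show how the test performs on members with few counts. Place was taken from spans of loci with a reference gene, counting an overlap from 1 base. The replicate ratio used CPM plus 0.1. Other mandarin and clementine libraries were not used here, and 1 locus with a reference gene is not reported here.

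Alternatives were DESeq2 1.42.0, the edgeR exact test, DESeq2-type size factors, no filter, 5 CPM, the 4 libraries compared, the longest transcript, a replicate block, each library left out, and members without overlap. Named loci were, per comparison, up to 6 called members per direction with the largest fold change and a mean of at least 5 CPM in the higher group, the 10 most abundant, the 3 longest and 2 on either side of the filter. For the interaction, up to 3 called members per direction were to be named and none was called. The members and lists were chosen with earlier results of these data known.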

Additional observations from a re-analysis of the deposited data

How the results depend on the processing

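The number of members called in GF against PU at pre-NEI (424) was 721 with DESeq2 and 645 with the edgeR exact test, 118 with only the 4 libraries compared and 139 of 1114 members at the minimum of 5 CPM, and 18 to 290 with a library left out. The share higher in GF, 64.6%, was 52.5% with the 4 libraries, 51.8% at 5 CPM and 33.3 to 69.1% with a library left out. At NEI (765) the count was 279 at 5 CPM, where 38.4% against 52.0% of calls were higher in GF, 480 in members without overlap, and 100 to 777 with a library left out. Size factors of the DESeq2 type, no filter on low counts, the longest transcript and, chosen after seeing the data, the most abundant member of each overlapping group (371 and 657) left both counts within 1.5-fold. In the stage comparisons, with 0 calls, DESeq2 called 155 members in GF, 127 in PU and 34 in the interaction, the edgeR exact test 203 and 100, and 0 to 3 were called in PU with a library left out. The cause of these differences between tools was not tested. Calls over all loci were not counted for the fits with a library left out, with the 4 libraries compared or at 5 CPM. The sources used here do not say that a replicate number marks the same year in each group, and the shifts between replicates 1 and 2 of different groups correlated at 0.0519 to 0.599 over all loci and 0.161 to 0.417 over members, so that a pairing by number was not settled. With replicate number as a block the counts were 595 at pre-NEI, 1013 at NEI, 47 for stage in GF, 33 for stage in PU and 0 for the interaction. Median length was 977 bp at 5 CPM, and the share overlapping a locus with a reference gene was 51.6% with at least 50% of the span overlapped and 51.0% over all loci without a reference gene. Median GC content from the longest transcript, also chosen after seeing the data, was 37.1%. Of 39 calls of named members, 19 were kept under every alternative, and over all 620 alternatives 560 were kept, 60 lost and 0 reversed.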
